A study of Mus musculus with 40 samples.

Results

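Pramel7 overexpression was measured in mouse embryonic stem cells that lack Dux. The comparison sets the 2 libraries labelled DuxKO_P7OE (replicates 1 and 2) against the 2 libraries labelled DuxKO (replicates 3 and 4), which are 4 of the 12 libraries of 1 count table and 4 of the 40 samples of the series. The libraries were chosen by their labels, and all genes of the table were described. The series asks how the corepressor CtBP, Dux and Pramel7 bear on the 2-cell-like state of embryonic stem cells, a rare state in which genes of the 2-cell embryo are active. All RNA came from E14tg2a, a mouse embryonic stem cell line grown in GMEM with serum and LIF, a cytokine that keeps these cells pluripotent. The other groups used here from the same table are 4 unmodified WT libraries (replicates 3 to 6) and 2 P7OE libraries, in which Pramel7 was overexpressed in cells with Dux. Levels are also given for the 2 libraries labelled P7KO, the Pramel7 knockout by that name. A second table supplied 2 further DuxKO libraries and 2 Ctbp_DuxTKO libraries, in which Ctbp1, Ctbp2 and Dux are all disrupted. The labels name no vector, promoter or induction for the Pramel7 transgene, do not say whether a line is 1 clone, and do not say whether replicates came from separate cultures. P-values therefore measure only the spread between these libraries, which may be technical.

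Pramel7 belongs to the PRAME family of leucine-rich repeat proteins. In embryonic stem cells it is known to bring Uhrf1, a protein needed to copy DNA methylation at replication, to a Cullin-2 ubiquitin ligase for degradation, and its overexpression lowers DNA methylation. Dux is a homeodomain transcription factor that activates genes of the 2-cell embryo, among them Zscan4 genes. Many germline genes carry CpG-rich promoters that DNA methylation keeps silent in somatic and pluripotent cells, and imprinted genes are expressed from the maternal or the paternal copy according to methylation. The RNA values below do not measure methylation.

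The promoters of 5 germline genes called higher in DuxKO_P7OE are shown because 31 of 49 such genes passed the test with higher levels, and methylation of such promoters is known to silence them. Each runs from 250 bases before to 50 bases after a start site (RefSeq, GRCm38.p6, which is mm10), is written 5′ to 3′ on the gene's strand, and has its CpG dinucleotides in capitals. Dazl lies at chr17:50293571-50293870 (minus strand), Mael at chr1:166238695-166238994 (minus), Asz1 at chr6:18109012-18109311 (minus), Taf7l at chrX:134476441-134476740 (minus) and Fkbp6 at chr5:135349995-135350294 (minus).
Dazl: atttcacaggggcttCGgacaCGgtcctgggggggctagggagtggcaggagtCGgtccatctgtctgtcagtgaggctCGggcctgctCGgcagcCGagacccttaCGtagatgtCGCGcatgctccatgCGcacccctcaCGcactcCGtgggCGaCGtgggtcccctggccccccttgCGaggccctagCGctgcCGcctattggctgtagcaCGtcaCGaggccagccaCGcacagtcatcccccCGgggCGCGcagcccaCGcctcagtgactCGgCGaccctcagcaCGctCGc
Mael: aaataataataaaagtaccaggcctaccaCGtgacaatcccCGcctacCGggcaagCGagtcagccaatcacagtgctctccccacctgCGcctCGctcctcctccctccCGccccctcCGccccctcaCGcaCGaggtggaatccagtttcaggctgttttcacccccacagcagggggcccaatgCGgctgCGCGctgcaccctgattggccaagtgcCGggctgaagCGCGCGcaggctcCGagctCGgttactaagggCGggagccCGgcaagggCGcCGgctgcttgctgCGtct
Asz1: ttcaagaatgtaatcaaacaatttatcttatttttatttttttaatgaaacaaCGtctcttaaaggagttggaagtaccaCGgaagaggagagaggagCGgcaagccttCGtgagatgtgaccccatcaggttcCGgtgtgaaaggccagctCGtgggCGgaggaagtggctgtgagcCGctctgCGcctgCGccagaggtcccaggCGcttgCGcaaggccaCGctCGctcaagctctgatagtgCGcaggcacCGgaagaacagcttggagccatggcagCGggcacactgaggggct
Taf7l: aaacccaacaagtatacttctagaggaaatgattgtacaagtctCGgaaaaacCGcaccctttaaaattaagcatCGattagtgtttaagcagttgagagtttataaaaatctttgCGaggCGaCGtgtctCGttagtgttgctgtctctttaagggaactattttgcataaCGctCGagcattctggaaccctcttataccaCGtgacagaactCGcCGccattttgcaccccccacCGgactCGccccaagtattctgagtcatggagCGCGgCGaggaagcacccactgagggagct
Fkbp6: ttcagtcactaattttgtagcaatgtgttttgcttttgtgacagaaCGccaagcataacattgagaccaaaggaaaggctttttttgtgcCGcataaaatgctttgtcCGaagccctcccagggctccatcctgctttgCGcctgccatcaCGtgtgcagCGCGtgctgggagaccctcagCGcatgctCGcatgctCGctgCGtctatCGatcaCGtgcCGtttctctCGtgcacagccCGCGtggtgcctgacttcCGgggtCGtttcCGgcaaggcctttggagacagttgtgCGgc
These windows hold 28, 24, 17, 17 and 21 CpGs in that order, against a median of 20 over the tested genes with an entry, of 7 over the 27025 genes of the whole promoter table and of 16 over the 41 tested germline genes with an entry. By this count Asz1 and Taf7l lie below the median of tested genes. Their ratios of observed CpGs to those expected from C and G content, 0.783 and 1.03, lie above the median of 0.741. The median ratio was below that value over the 41 tested germline genes, at 0.666, and over the 30 called higher, at 0.606. The 5 windows shown therefore do not stand for the list. Dazl encodes an RNA-binding protein of germ cells. Mael and Asz1 act in the piRNA pathway, Taf7l encodes a testis TFIID subunit and Fkbp6 acts in meiosis and the piRNA pathway. The E-box CACGTG, searched on both strands, occurred in the windows of Mael, Taf7l and Fkbp6 and in 13 of the 41 germline genes (31.7%). Among those called higher it occurred in 7 of 30 (23.3%). It occurred in 9.95% of the 12253 tested genes with an entry and in 7.24% of the whole promoter table. Promoter entries were found for 41 of 49 tested germline genes. For all tested genes the share was 60.8%. Of the 2339 genes called higher, 1468 had an entry, with a median of 17 CpGs and a median ratio of 0.64. Of the 1981 called lower, 1361 had an entry, with medians of 22 CpGs and 0.795. The medians over tested genes were 20 CpGs and 0.741. With entries for only part of the genes, these values describe the called genes and were not tested.

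Total counts were 20390473 and 28109604 in DuxKO and 11089600 and 10123058 in DuxKO_P7OE, so depth moved with the comparison. Across the table totals ran from 10123058 to 30135341. Replicates were not copies of each other (chi-square per gene 41.11 within DuxKO and 21.43 within DuxKO_P7OE). Of 55291 genes, 20161 passed the filter on low counts and were tested. On the first principal component, which held 32.5% of the variance, the 4 Pramel7-overexpressing libraries lay on the positive side and the other 8 on the negative side. Summed markers of embryonic stem cells were 2386 and 2526 CPM (counts divided by the scaled library size, the usual CPM unit) in DuxKO and 2421 and 2299 CPM in DuxKO_P7OE, which overlap. Of the 8 markers, 0 were called higher and 1 was called lower, Klf4. Fibroblast markers summed to 2.85 and 2.72 CPM in DuxKO and to 6.15 and 3.95 CPM in DuxKO_P7OE, with Lum and Postn at 0 in all 4 libraries. The part of such cells in the results was not tested.

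The targeted genes were read first. Pramel7 had 0 and 0 counts in DuxKO and 537 and 588 counts in DuxKO_P7OE. The groups were far apart, and Pramel7 was at least 385-fold higher (edgeR adjusted p 5.22e-07). Dux, listed as Duxf3, had 0 counts in all 4 libraries and was not tested in this table. In P7OE cells Duxf3 had 17 counts in replicate 1 and 1 count in replicate 2, and WT replicates 3 to 6 had 2, 1, 1 and 0 counts. Pramel7 RNA was therefore seen in both DuxKO_P7OE libraries, and Dux RNA in none of the 4 libraries compared. With WT this low, the lack of Duxf3 reads cannot check the knockout. Reads of the transgene and of the cells' own Pramel7 cannot be told apart.

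The RNA of the proteins next to Pramel7 in its known pathway was also read. Uhrf1 stood at 349 and 388 CPM in DuxKO and at 312 and 315 CPM in DuxKO_P7OE. The DuxKO_P7OE libraries were the lower ones, but the log2 fold change of −0.23 (SE 0.14) did not pass the test (edgeR adjusted p 0.243). Of 7 tested subunits of the Cullin-2 ligase, 0 were called higher, against 11.6% of all tested genes. Called lower was 1 (14.3%, against 9.83% of all tested genes), the RING subunit gene Rbx1. It stood at 109 and 118 CPM in DuxKO and at 71 and 66.6 CPM in DuxKO_P7OE, a log2 fold change of −0.72 (SE 0.13, edgeR adjusted p 0.00231). The RNA level says nothing of the amount of protein.

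Across all genes, 4320 were called at a Benjamini-Hochberg adjusted p under 0.05 (edgeR quasi-likelihood test). Of these, 2339 were higher in DuxKO_P7OE (11.6% of the tested genes) and 1981 were lower (9.83%). The WT mean lay above the DuxKO mean for 1870 of the 2339 and for 492 of the 1981. DuxKO enters both comparisons, so these counts describe the called genes and are not a test. At a fold change of at least 2, 1648 were higher and 800 lower. The median log2 fold change over all tested genes was −0.03. Without DuxKO replicate 4, DuxKO replicate 3, DuxKO_P7OE replicate 1 or DuxKO_P7OE replicate 2 the count was 1925, 2108, 2242 or 2675, which leaves 1 group with a single library. With the DuxKO libraries thinned to the depth of the others it was 3833.

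**Figure D1:**
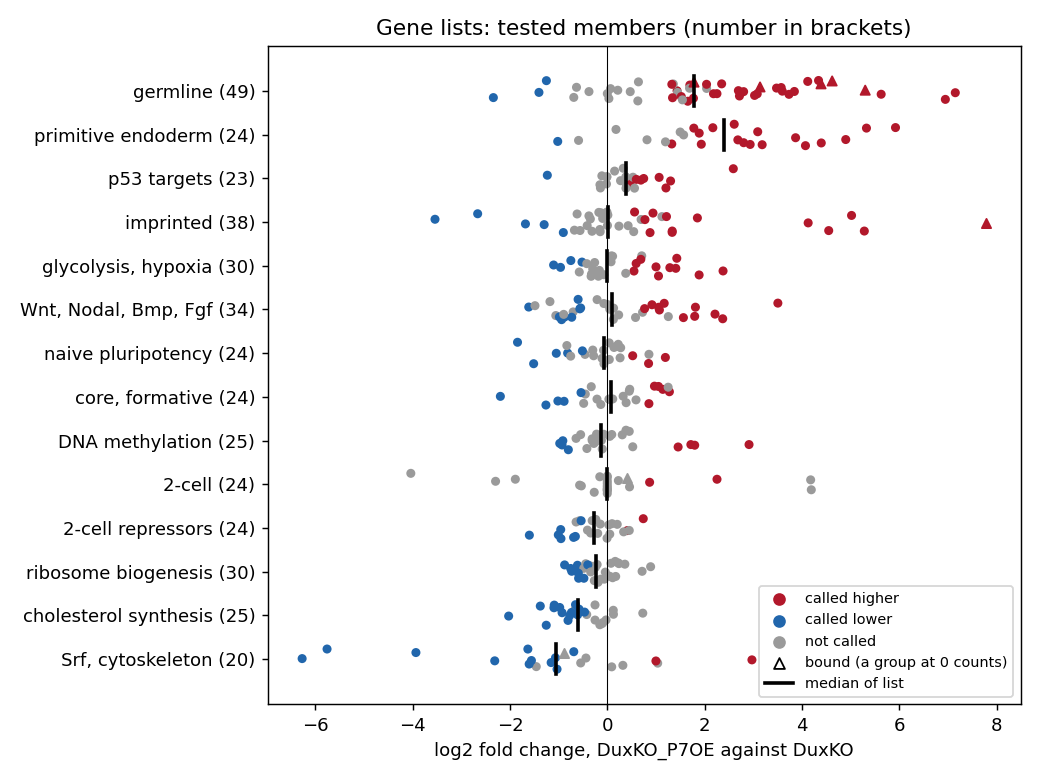
Log2 fold change in DuxKO_P7OE against DuxKO (x axis) for each tested member of 14 gene lists (y axis, number tested in brackets). Red and blue points were called higher and lower, grey points were not called, triangles are bounds for genes at 0 counts in a group, and bars mark list medians with those bounds. Germline and primitive endoderm members lie mostly above 0, and cholesterol and Srf target members mostly below.

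Germline and meiosis genes were higher in DuxKO_P7OE more often than lower. Of 56 listed genes, 55 are in the table and 49 were tested; 31 were called higher (background 11.6%) and 3 lower (background 9.83%). The list's median log2 fold change was 2.04, and 1.78 with genes at 0 counts set at their bound, against −0.03 over all genes. Genes that are silent in DuxKO pass the filter only where they are high elsewhere, so these counts describe the list and do not test it. Of the members, 25 lie on chromosomes 5, 8, 11, 13 and X, whose genes were shifted as a whole (below). Among the 24 elsewhere, 14 were called higher and 1 lower.

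Fkbp6 had 6 and 3 counts in DuxKO and 104 and 113 in DuxKO_P7OE. The groups did not overlap, and the log2 fold change was 5.63 (SE 0.51, edgeR adjusted p 1.34e-05). Dazl had 8 and 6 counts in DuxKO and 17 and 27 in DuxKO_P7OE, a log2 fold change of 2.69 (SE 0.71, edgeR adjusted p 0.0171). Its levels were low in all 4 libraries, from 0.214 to 2.6 CPM, and the call was lost without DuxKO replicate 4 or DuxKO_P7OE replicate 2 (edgeR adjusted p 0.143 and 0.104). Mael had 24 and 24 counts against 83 and 68, or 1.34 and 0.858 CPM against 7.61 and 6.56 CPM (log2 fold change 2.72, SE 0.41, edgeR adjusted p 0.000654). Asz1 had 0 and 0 counts against 4 and 6, at least 3.44-fold higher (edgeR adjusted p 0.0308), which rests on very few reads. Taf7l had 2 and 1 counts against 10 and 12, a ratio of 15.8 with a counting interval from 4.74 to 82.3 (95%, exact). Mael, Asz1, Taf7l and the 2 genes of the next sentences fall outside the rule for named genes and were chosen after their values were seen. Rpl10l, a ribosomal protein gene used in spermatogenesis, stood at 4.92 and 5.07 CPM in DuxKO and at 43.5 and 41.3 CPM in DuxKO_P7OE (log2 fold change 3.08, SE 0.25, edgeR adjusted p 4.99e-06). Smc1b, a meiotic cohesin subunit, stood at 0.448 and 0.858 CPM in DuxKO and at 7.34 and 16.5 CPM in DuxKO_P7OE. Its DuxKO_P7OE libraries differed from each other but lay above both DuxKO libraries (log2 fold change 4.12, SE 0.47, edgeR adjusted p 7.74e-05). The 3 members called lower were Tex15, Rhox9 and Tdrd1, with log2 fold changes of −1.40, −2.34 and −1.25.

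X-linked Xlr genes, a cluster of near-identical copies related to the synaptonemal complex gene family, were silent or nearly so in DuxKO. Xlr3a had 0 and 0 counts against 54 and 61 (at least 39.4-fold higher, edgeR adjusted p 0.000297), and lies at chrX:73086293-73097095 (GRCm38.p6). Xlr4a had 0 and 0 counts against 37 and 35 (at least 24.6-fold higher, edgeR adjusted p 0.0035). Xlr5a had 0 and 0 counts against 22 and 39 (at least 21-fold higher, edgeR adjusted p 0.00165). All 3 had reads in both DuxKO_P7OE libraries and none in DuxKO, but reads of single copies cannot be assigned with certainty. Pnma5, at chrX:73033981-73039721, had 1 and 4 counts against 150 and 151 (log2 fold change 6.97, SE 0.50, edgeR adjusted p 2.13e-06). Fmr1nb, an X-linked gene expressed in testis, had 0 and 0 counts against 92 and 54 (at least 49.6-fold higher, edgeR adjusted p 6.97e-06).

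Genes of primitive and visceral endoderm, the lineage that surrounds the epiblast of the blastocyst, were higher in DuxKO_P7OE. Of 26 listed genes 24 were tested, of which 17 were called higher (70.8%, background 11.6%) and 1 lower (4.17%, background 9.83%). The list's median was 2.39 on the log2 scale. Among 16 members outside the shifted chromosomes, 12 were called higher and 0 lower. In bulk RNA, more cells of a type and more RNA per cell cannot be told apart. The 7 marker genes of this lineage summed to 9.57 and 7.86 CPM in DuxKO and to 77.9 and 71.5 CPM in DuxKO_P7OE, and 7 of 7 were called higher. The sums were 7.27 to 9 CPM in the 4 WT libraries and 77 and 81.6 CPM in P7OE.

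Cubn, which encodes the endocytic receptor cubilin of visceral endoderm, stood at 1.79 and 2.14 CPM in DuxKO and at 58.1 and 60.7 CPM in DuxKO_P7OE. The 2 groups were clearly apart (log2 fold change 4.90, SE 0.54, edgeR adjusted p 6.27e-05). Hnf4a, an endoderm transcription factor, stood at 0.336 and 0.5 CPM against 11.6 and 6.75 CPM (log2 fold change 4.40, SE 0.40, edgeR adjusted p 1.3e-05). Srgn, a proteoglycan gene expressed in parietal endoderm, had 2 and 2 counts against 83 and 38 (log2 fold change 5.92, SE 0.52, edgeR adjusted p 1.15e-05). Among the lineage's defining factors, chosen here after their values were seen, Gata4 stood at 1.12 and 1.07 CPM in DuxKO and at 7.8 and 7.52 CPM in DuxKO_P7OE. Gata6 stood at 0.727 and 1.5 CPM against 5.78 and 8.29 CPM, and Sox17 at 0.783 and 0.179 CPM against 7.8 and 7.13 CPM. Their log2 fold changes were 2.80, 2.61 and 4.07 (edgeR adjusted p 0.000154, 0.0016 and 0.000281). The late visceral endoderm genes Ttr and Afp were too low to be tested. Fst, a secreted activin antagonist, was the 1 member called lower, with a log2 fold change of −1.02.

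Dnmt3a, Dnmt3b and Dnmt3l, of the de novo DNA methylation machinery, were higher in DuxKO_P7OE. In the list of 25 genes of DNA methylation and demethylation, 4 were called higher (16%, background 11.6%) and 4 lower (16%, background 9.83%), and the 4 higher ones were Dnmt3a, Dnmt3b, Dnmt3l and Dnmt3c. Dnmt3l, the catalytically inactive cofactor of the de novo enzymes, stood at 28.1 and 28.3 CPM in DuxKO and at 207 and 218 CPM in DuxKO_P7OE (log2 fold change 2.91, SE 0.17, edgeR adjusted p 5.17e-07). The WT libraries held 171, 178, 230 and 229 CPM of Dnmt3l, so DuxKO lay below WT and DuxKO_P7OE within its range. Dnmt3b stood at 51.5 and 40.8 CPM against 154 and 166 CPM (log2 fold change 1.80, SE 0.19, edgeR adjusted p 5.54e-05), and WT at 360, 377, 264 and 269 CPM. DuxKO_P7OE thus lay between DuxKO and WT for this gene. Dnmt3a, the other main de novo enzyme, stood at 84.5 and 84.2 CPM against 225 and 238 CPM (log2 fold change 1.46, SE 0.15, edgeR adjusted p 3.71e-05), above all 4 WT libraries, which held 102 to 121 CPM. Dnmt3c, an enzyme of the male germline, had 19 and 24 counts against 13 and 53. Its groups overlapped in counts but not in CPM, and the call was near the threshold (edgeR adjusted p 0.042). It was lost with only the groups compared, with DuxKO thinned to equal depth, and without DuxKO replicate 3, DuxKO replicate 4 or DuxKO_P7OE replicate 2. Its log2 fold change was 1.72, and 0.32 without DuxKO_P7OE replicate 2 (edgeR adjusted p 0.751). Dnmt1, the maintenance enzyme, stood at 349 and 395 CPM against 302 and 313 CPM and was not called (log2 fold change −0.28, SE 0.18, edgeR adjusted p 0.306). The 4 genes called lower were the Uhrf1 relative Uhrf2, the methyl-CpG binding proteins Mbd1 and Mbd2, and Cdca7, with log2 fold changes from −0.98 to −0.80. Tet1 and Tet2, which oxidise 5-methylcytosine, were not called (edgeR adjusted p 0.577 and 0.815). Tet1 stood at 294 and 338 CPM against 425 and 400 CPM, and was called with only the groups compared.

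**Figure D2:**
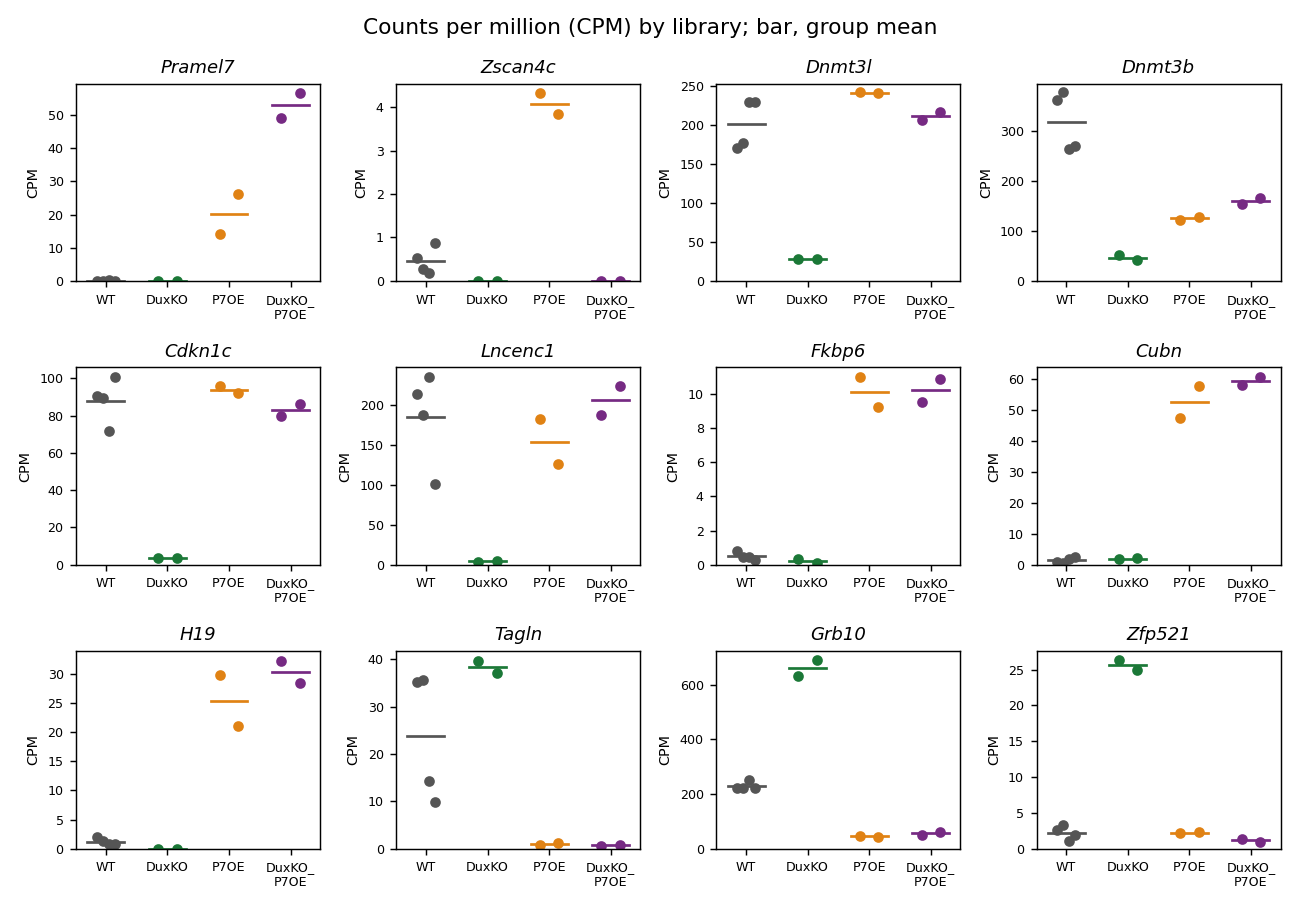
CPM (y axis, linear from 0) of 12 genes in each library of 4 groups (x axis). Points are libraries and bars are group means. Of the groups plotted, Dnmt3l, Cdkn1c and Lncenc1 are lowest in DuxKO, Fkbp6, Cubn and H19 are high in both overexpressing groups, and Zscan4c has counts in WT and P7OE but 0 in both Dux knockout groups.

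Imprinted genes moved in both directions. Of 38 tested, 13 were called higher (34.2%, background 11.6%) and 5 lower (13.2%, background 9.83%), and the median log2 fold change was 0.01. The noncoding RNA gene H19, at chr7:142575530-142578146, had 0 and 0 counts in DuxKO and 352 and 296 in DuxKO_P7OE (at least 221-fold higher, edgeR adjusted p 1.52e-06). Its neighbour Igf2, a growth factor gene chosen here after its values were seen, moved the other way, from 22.3 and 29 CPM to 3.49 and 4.63 CPM (log2 fold change −2.66, SE 0.22, edgeR adjusted p 7.21e-06). Both genes were without overlap between the groups.

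Further along chromosome 7, in the imprinted Kcnq1 domain, 3 maternally expressed genes were higher. Cdkn1c, a cyclin-dependent kinase inhibitor gene at chr7:143458339-143461059, stood at 3.47 and 3.61 CPM in DuxKO and at 80 and 86.3 CPM in DuxKO_P7OE (log2 fold change 4.55, SE 0.19, edgeR adjusted p 5.04e-08). Phlda2, a placental growth restrictor at chr7:143501545-143503145, stood at 0.448 and 0.572 CPM against 9.27 and 9.06 CPM (log2 fold change 4.13, SE 0.28, edgeR adjusted p 1.06e-06). Ascl2, a trophoblast transcription factor at chr7:142966822-142969264, had 2 and 2 counts against 39 and 38 (log2 fold change 5.28, SE 0.47, edgeR adjusted p 1.18e-05). For all 3 genes the WT means (88, 14.1 and 4.26 CPM) lay above the DuxKO means of 3.54, 0.51 and 0.0917 CPM. The noncoding RNA Kcnq1ot1 of the same domain stood at 72.3 and 70.4 CPM against 50.4 and 46.5 CPM and was not called (edgeR adjusted p 0.205).

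Grb10, an imprinted growth suppressor at chr11:11930499-12037428, fell from 633 and 689 CPM to 51.5 and 62.3 CPM (log2 fold change −3.54, SE 0.16, edgeR adjusted p 5.04e-08). It fell although genes of chromosome 11 as a whole were shifted upwards. The WT mean of Grb10 was 229 CPM, below the DuxKO mean of 661 CPM. The paternally expressed Peg13 had 4 and 2 counts against 67 and 30 (log2 fold change 5.02, SE 0.63, edgeR adjusted p 0.000171). Other members called lower were Magel2, Sgce and Slc38a4, with log2 fold changes of −1.30, −1.68 and −0.90.

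Several of the other large increases were in genes silent in DuxKO. Serpina3m, a serine protease inhibitor gene, had 0 and 0 counts against 156 and 150 (at least 105-fold higher, edgeR adjusted p 5.87e-07). Zfp951, a zinc finger gene, had 0 and 0 counts against 79 and 79 (at least 54-fold higher, edgeR adjusted p 2.71e-05). Neither gene had a read in the DuxKO libraries, although these were the deeper ones. Tmem40, a membrane protein gene, had 0 and 2 counts against 92 and 105, a ratio of 212 with a counting interval from 58 to 1770. Lncenc1, a noncoding RNA gene of naive embryonic stem cells, stood at 3.86 and 4.72 CPM against 187 and 224 CPM (log2 fold change 5.57, SE 0.38, edgeR adjusted p 1.32e-06). Its WT libraries held 214, 187, 235 and 101 CPM. Of the 2339 genes called higher, 102 had 0 counts in both DuxKO libraries.

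Smooth muscle and cytoskeletal genes that respond to Srf and Yap were lower in DuxKO_P7OE. Of 20 tested, 11 were called lower (55%, background 9.83%) and 2 higher (10%, background 11.6%), and the median log2 fold change was −1.11. Tagln, which encodes transgelin, an actin-binding protein, fell from 711 and 1040 counts to 7 and 8 (log2 fold change −5.76, SE 0.67, edgeR adjusted p 0.0001). Acta2, smooth muscle actin, had 144 and 205 counts against 0 and 2, which is 80.9-fold lower with a counting interval from 22.2 to 671. Thbs1, the secreted glycoprotein thrombospondin 1, fell from 32.9 and 39.9 CPM to 3.58 and 1.16 CPM (log2 fold change −3.93, SE 0.34, edgeR adjusted p 9.67e-06). None of these 3 genes overlapped between the groups. The WT means of Tagln, Acta2 and Thbs1 were 23.8, 0.58 and 23.5 CPM. The DuxKO means were higher, at 38.5, 7.69 and 36.4 CPM. Lmna, which encodes the nuclear lamins A and C, went the other way, from 17.5 and 18 CPM to 38 and 33.1 CPM (log2 fold change 1.00, SE 0.19, edgeR adjusted p 0.00268). Srf itself stood at 53.4 and 55.9 CPM against 40.2 and 40.5 CPM and was not called (edgeR adjusted p 0.111). Outside the shifted chromosomes, 9 of 16 members were called lower and 1 higher.

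Cholesterol synthesis genes were lower or not called. Of 25 tested, 14 were called lower (56%, background 9.83%) and 0 higher (background 11.6%), and the median log2 fold change was −0.61. Msmo1, a sterol demethylation enzyme, fell from 45.3 and 45.2 CPM to 15.9 and 19 CPM (log2 fold change −1.38, SE 0.19, edgeR adjusted p 0.000345). The groups did not overlap. The regulator Srebf2 stood at 248 and 253 CPM against 220 and 231 CPM and was not called (edgeR adjusted p 0.431). Outside the shifted chromosomes, 9 of 15 members were called lower. With 1 library left out, 5 to 8 of the 25 were called lower.

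Genes of the 2-cell state were mostly without reads in these cells. The list has 24 tested genes, of which 13 had at most 3 counts in each of the 4 libraries and could hardly be called. Of the 24, 2 rose (8.33%, background 11.6%) and 0 fell (background 9.83%), and the median log2 fold change was 0. Zscan4c had 0 counts in all 4 libraries, and 10 of the 24 were at 0 in all 4. In P7OE cells, which have Dux, Zscan4c had 134 and 63 counts, and in WT 14, 7, 5 and 19. A count of 0 still allows up to 3 counts in a library. The 2 members called higher were Dppa2 and Duxbl1, and both are expressed outside the 2-cell state. Dppa2, an activator upstream of Dux, stood at 47.8 and 52.1 CPM against 84.2 and 98.5 CPM (log2 fold change 0.87, SE 0.15, edgeR adjusted p 0.00185). Its partner Dppa4 stood at 57.1 and 57.4 CPM against 46.9 and 56 CPM and was not called (edgeR adjusted p 0.508). Duxbl1, a Dux-related gene, had 27 and 31 counts against 84 and 48 (log2 fold change 2.25, SE 0.34, edgeR adjusted p 0.000643). Dppa3, a maternal factor that binds Uhrf1, fell from 3.97 and 3.86 CPM to 0.917 and 1.83 CPM (log2 fold change −1.51, SE 0.45, edgeR adjusted p 0.0318). This call was lost with DuxKO thinned to equal depth (edgeR adjusted p 0.0656) and without DuxKO replicate 3, DuxKO replicate 4 or DuxKO_P7OE replicate 1 (log2 fold change −1.54 to −1.09, edgeR adjusted p 0.0998 to 0.234). Among 24 CtBP partners and repressors of the 2-cell state, 7 were called lower (29.2%, background 9.83%) and 2 higher (8.33%, background 11.6%). Pcgf6, a subunit of a noncanonical Polycomb complex that silences germline genes, fell from 66.8 and 76.1 CPM to 20.2 and 27 CPM (log2 fold change −1.60, SE 0.24, edgeR adjusted p 0.000599). E2f6, a subunit of the same complex, fell from 25.1 and 23.3 CPM to 11.7 and 12.4 CPM (log2 fold change −1.01, SE 0.18, edgeR adjusted p 0.00192). Ctbp1 and Ctbp2 were not called (edgeR adjusted p 0.987 and 0.439).

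The pluripotency factors Nanog, Pou5f1, Sox2 and Zfp42 stayed on. Nanog stood at 129 and 141 CPM against 112 and 108 CPM, Pou5f1 at 496 and 498 CPM against 649 and 598 CPM, and Sox2 at 243 and 228 CPM against 197 and 233 CPM. None of the 3 was called (edgeR adjusted p 0.198, 0.159 and 0.612), and neither was Zfp42 (edgeR adjusted p 0.381). Pou5f1 was called, as higher, with only the groups compared. In the list of 24 naive factors and genes of LIF signalling, 3 were called higher (12.5%, background 11.6%) and 5 lower (20.8%, background 9.83%). Of its 16 members outside the shifted chromosomes, 1 was called higher and 3 lower. Socs3, a feedback inhibitor induced by Stat3, fell from 40.7 and 56.1 CPM to 15.5 and 11.5 CPM (log2 fold change −1.84, SE 0.20, edgeR adjusted p 5.23e-05). Tfcp2l1, a naive transcription factor, fell from 202 and 229 CPM to 109 and 100 CPM (log2 fold change −1.05, SE 0.20, edgeR adjusted p 0.0026). Klf4, of the same list, fell from 110 and 130 CPM to 63.6 and 73 CPM (log2 fold change −0.81, SE 0.14, edgeR adjusted p 0.00156). In P7OE against WT the log2 fold change of Klf4 was 1.16 (edgeR adjusted p 3.36e-05). Core and formative genes were split, with 5 of 24 called higher and 5 lower (20.8% each). The formative factor Pou3f1 had a log2 fold change of 1.28 and the formative ligand Fgf5 of −1.26 (edgeR adjusted p 0.00531 and 0.0257). The call of Fgf5 was lost without any 1 of the 4 libraries (edgeR adjusted p 0.0715 to 0.122). Cdh2, the N-cadherin gene, fell from 45.7 and 45.7 CPM to 9.91 and 10 CPM (log2 fold change −2.20, SE 0.20, edgeR adjusted p 1.18e-05). Its WT mean was 18.3 CPM.

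Signalling targets were also split. Of 34 genes, 11 were called higher (32.4%, background 11.6%) and 8 lower (23.5%, background 9.83%). Lefty2, a target and inhibitor of Nodal, stood at 24.7 and 24.4 CPM against 127 and 101 CPM (log2 fold change 2.21, SE 0.17, edgeR adjusted p 3.02e-06). The Wnt antagonists Dkk1 and Notum had log2 fold changes of 3.51 and 1.81 (edgeR adjusted p 0.00913 and 0.00121). Without DuxKO replicate 3 the call of Dkk1 was lost (edgeR adjusted p 0.0706). The Bmp targets Id1, Id2 and Id3 and the Fgf pathway inhibitors Dusp4, Dusp6, Spry2 and Spred1 were among those called lower. Among 23 p53 targets, 8 were called higher (34.8%) and 1 lower (4.35%), and Gdf15, a stress-induced cytokine gene, stood at 2.57 and 2.5 CPM against 12.7 and 17.9 CPM (log2 fold change 2.59, SE 0.37, edgeR adjusted p 0.000421). Of 30 ribosome biogenesis genes, 9 were called lower (30%) and 0 higher, among them Mycn with a log2 fold change of −0.73 (edgeR adjusted p 0.00479, and 0.0511 without DuxKO replicate 4). Of 30 glycolysis and hypoxia genes, 10 were called higher (33.3%) and 4 lower (13.3%), read against the same backgrounds. Among the 23 of these outside the shifted chromosomes, 6 were called higher and 4 lower.

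Genes of other lineages were called in both directions. Of 19 trophoblast genes 3 were called higher (15.8%, background 11.6%) and 5 lower (26.3%, background 9.83%). Of 14 mesoderm genes 4 were called higher (28.6%) and 3 lower (21.4%). Of the 10 mesoderm genes outside the shifted chromosomes, 2 were called higher and 2 lower. Of 11 neuroectoderm genes 2 were called higher and 2 lower (18.2% each). Cdx2, a trophectoderm and posterior factor, fell from 6.99 and 7.75 CPM to 0.367 and 0.964 CPM (log2 fold change −3.47, SE 0.48, edgeR adjusted p 0.000341). The summed trophoblast markers were 13.7 and 15.8 CPM in DuxKO and 2.94 and 4.53 CPM in DuxKO_P7OE. Of these 5 markers, 2 were called lower and 0 higher. Ascl2 and Plet1 of the trophoblast list went the other way, with log2 fold changes of 5.28 and 4.20. Plet1 stood at 0.336 and 0.286 CPM against 6.05 and 5.4 CPM (SE 0.51, edgeR adjusted p 0.000133). Among the other large decreases, Zfp521, a zinc finger factor that promotes neural fate, fell from 26.3 and 24.9 CPM to 1.38 and 0.964 CPM (log2 fold change −4.44, SE 0.41, edgeR adjusted p 1.63e-05). Olig3, a neural progenitor factor, had 59 and 60 counts against 2 and 0, which is 27.6-fold lower with a counting interval from 7.47 to 231. Tgfb2, a secreted growth factor gene, had 80 and 142 counts against 2 and 0, which is 51.5-fold lower with a counting interval from 14.1 to 428. BC064078 had 30 and 104 counts against 0 and 0, at least 9.56-fold lower (edgeR adjusted p 0.000998). The WT means of Zfp521, Olig3, Tgfb2 and BC064078 were 2.24, 0.259, 1.38 and 0.18 CPM. The DuxKO means were higher, at 25.6, 2.72, 4.77 and 2.7 CPM.

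Whole chromosomes were also shifted between the groups. The median log2 fold change of expressed genes was 0.29 on chromosome 5 and 0.23 on chromosome 11, and −0.32 on chromosome 8, −0.23 on chromosome 13 and −0.18 on the X chromosome, against −0.07 over all expressed genes. These 5 chromosomes lay over 0.1 from that value. The share called higher was 26.2% on chromosome 5 and 20.9% on chromosome 11 (background 11.6%), and the share called lower was 22.9% on chromosome 8 (background 9.83%). Set against WT, DuxKO had a median of 0.34 on chromosome 8, DuxKO_P7OE had medians of 0.37 on chromosome 5 and 0.23 on chromosome 11, and P7OE had a median of 0.42 on chromosome 5. The DNA copy number of the lines was not measured here, and its part in the calls was not tested. Without the genes of chromosomes 5, 8, 11, 13 and X, 2879 genes were called.

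**Figure D3:**
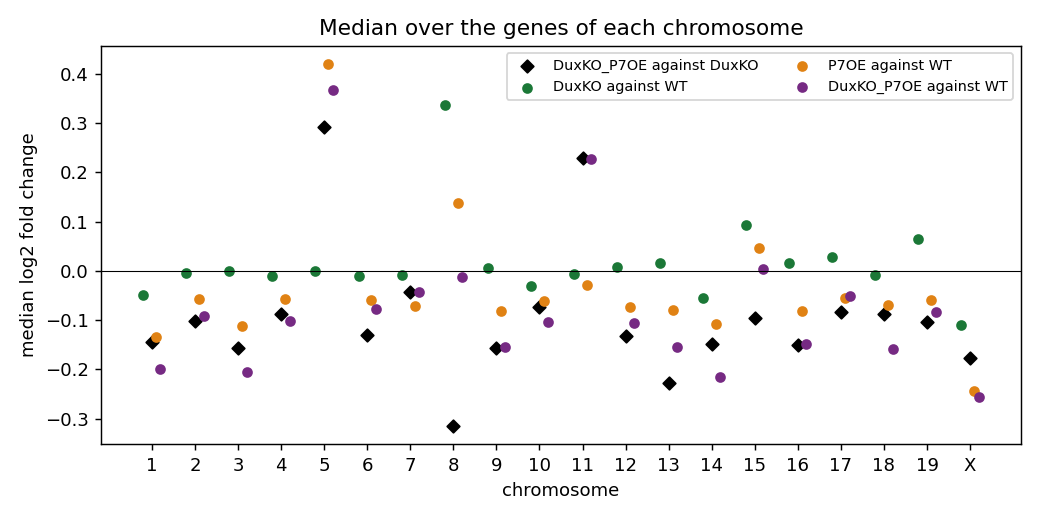
Median log2 fold change (y axis) over expressed genes of each chromosome (x axis) for 4 comparisons, 1 point each. Chromosome 8 is high in DuxKO against WT (0.34), chromosome 5 is high in both overexpressing groups (0.42 and 0.37) and chromosome 11 is high in DuxKO_P7OE (0.23).

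Whether Pramel7 acted alike in cells with and without Dux was read from P7OE against WT, which shares no library with the comparison above. There 2209 genes were called higher (11% of the tested genes) and 1794 lower (8.9%). Of the 2339 genes called higher in DuxKO_P7OE, 939 were also higher in P7OE, which is 40.1% of the former and 42.5% of the latter, and 107 were called lower there. Of the 1981 called lower, 568 were also lower in P7OE, which is 28.7% and 31.7%, and 70 were called higher there. Counting sign alone, 79.3% and 76.9% had the same direction. Across 11562 expressed genes, which are not independent replicates, Pearson's r between the 2 sets of log2 fold changes was 0.459. Chromosome 5 lay above WT in P7OE and in DuxKO_P7OE (medians 0.42 and 0.37) and held 283 of the 2339 genes. The part of this chromosome in the shared calls, the shared signs and r was not tested. Germline genes were called higher in P7OE in 23 of 49, primitive endoderm genes in 18 of 24, cholesterol genes lower in 13 of 25 and Srf targets lower in 14 of 20. In the 2-cell list 17 of 24 were called higher in P7OE and 2 of 24 in DuxKO_P7OE, but many members passed the filter on low counts only where they were high, so these counts describe the list and do not compare the effects. The difference itself was called for 1 of its members, and for the 10 at 0 in both Dux knockout groups it could not be read. Without P7OE replicate 1 or 2 the count of calls in P7OE against WT was 1719 or 1477, and with WT replicates 3 and 4 only it was 6124.

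The difference between the 2 effects was tested as an interaction in the same fit. The level of Pramel7 also differed, at 14 and 26.2 CPM in P7OE and 49.3 and 56.7 CPM in DuxKO_P7OE. Its part in the difference was not tested, so Pramel7 level and Dux status cannot be told apart here. The difference was called for 1512 genes, 861 with a higher log2 fold change in DuxKO cells (4.27%) and 651 with a lower one (3.23%). Without a single library of DuxKO, P7OE or DuxKO_P7OE the count was 651 to 860, lowest without P7OE replicate 1, and with WT replicates 3 and 4 only it was 3184. Of the 861, 629 were called higher in DuxKO_P7OE against DuxKO, and 320 were called lower in P7OE against WT. Of the 651, 390 were called lower in DuxKO_P7OE against DuxKO, and 314 were called higher in P7OE against WT.

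Cdkn1c had a difference above 0. It stood at 71.5 to 101 CPM in WT, at 3.47 and 3.61 CPM in DuxKO, at 95.7 and 92 CPM in P7OE and at 80 and 86.3 CPM in DuxKO_P7OE. DuxKO was the lowest of these 4 groups, and the 2 P7KO libraries, at 10.5 and 12.3 CPM, were also below WT. The difference in log2 fold change was 4.46 (edgeR adjusted p 1.39e-06). Lncenc1 had a difference of 5.83 (edgeR adjusted p 2.56e-05), Phlda2 of 5.93 (edgeR adjusted p 2.19e-06) and Ascl2 of 6.15 (edgeR adjusted p 5.03e-05). Dnmt3b had effects of opposite sign, 1.80 in DuxKO cells and −1.35 in cells with Dux (difference 3.14, edgeR adjusted p 3.19e-05). Dnmt3l had a log2 fold change of 0.26 in cells with Dux, which was not called (difference 2.65, edgeR adjusted p 3.2e-05). Among genes with a lower effect in DuxKO cells, Zfp521 stood at 1.12 to 3.29 CPM in WT and at 2.19 and 2.25 CPM in P7OE, so that among these 4 groups the DuxKO libraries were high (difference −4.42, edgeR adjusted p 0.000307). The P7KO libraries, at 11.8 and 12.3 CPM of Zfp521, also lay above WT. Grin2a, a glutamate receptor gene, had a log2 fold change of −2.96 in DuxKO cells and of 1.72 in cells with Dux (difference −4.68, edgeR adjusted p 9.02e-05). The difference was not called for Cubn (−0.33), Fkbp6 (1.30) or Tagln (−1.08), with edgeR adjusted p of 0.822, 0.272 and 0.552. For Zscan4c, at 0 in both Dux knockout groups, the difference could not be read.

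**Figure D4:**
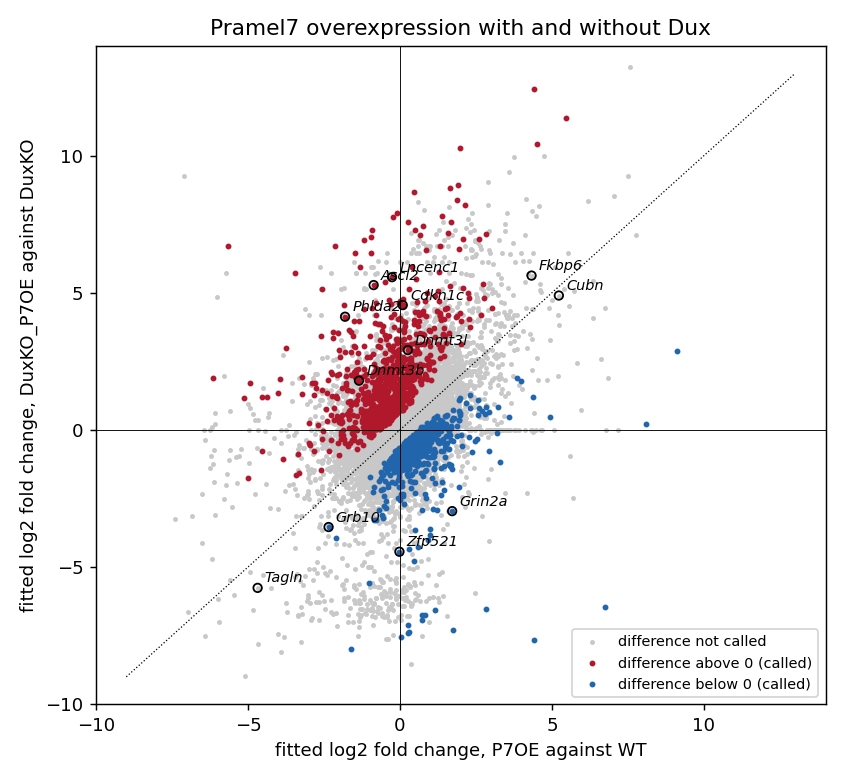
Fitted log2 fold change of Pramel7 overexpression in DuxKO cells (y axis) against that in cells with Dux (x axis), 1 point per tested gene. Red and blue points were called for the difference (861 above and 651 below 0), the dotted line marks equal effects, and points far from the origin include genes at 0 counts whose fitted value depends on the prior count. Cubn, Fkbp6 and Tagln lie near the line, while Cdkn1c, Lncenc1 and Zfp521 lie near the vertical axis.

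The DuxKO levels were also read in the second table, where 2 other DuxKO libraries were sequenced with 2 WT libraries. Tables were normalized separately, so levels are compared only within each. Cdkn1c stood at 29 and 29.4 CPM in WT and at 3.84 and 3.72 CPM in DuxKO there, Dnmt3l at 66.5 and 61.6 against 22 and 21.7 CPM, and Lncenc1 at 30.1 and 28.9 against 2.04 and 2.76 CPM. DuxKO was the lower group for all 3 genes in this table too. H19 was at or below 0.204 CPM in both groups there.

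The same table holds a separate perturbation of DuxKO cells, the loss of CtBP. Pramel7 itself was also higher there, with 30 and 42 counts in Ctbp_DuxTKO against 0 and 0 in DuxKO (edgeR adjusted p 0.000131). Its part in the shared calls below was not tested. Between Ctbp_DuxTKO and DuxKO, 4533 genes were called higher (21.4% of 21193 tested) and 4152 lower (19.6%). Of the genes called higher in DuxKO_P7OE and tested in both tables, 1347 of 2259 were also called higher there (59.6%, or 32.2% of the genes higher there). Of those called lower, 851 of 1951 were also called lower there (43.6%, or 20.7%). Opposite calls were made for 193 and 146 genes. H19 stood at 0.204 and 0.133 CPM in that DuxKO and at 25.8 and 25.2 CPM in Ctbp_DuxTKO, Cdkn1c rose from 3.84 and 3.72 to 29.4 and 30.1 CPM, and Grb10 fell from 603 and 611 to 47.3 and 50.9 CPM. Their log2 fold changes were 7.21, 2.97 and −3.63 (edgeR adjusted p 3.29e-09, 3.57e-09 and 2.81e-11). Cubn, from 0.986 and 1.83 to 122 and 99.1 CPM, also rose (log2 fold change 6.29, edgeR adjusted p 8.77e-08). H19, Cdkn1c, Grb10 and Cubn moved in the direction seen with Pramel7 overexpression.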

How the data were processed

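RNA of 12 libraries was read from a table of raw counts per gene symbol deposited by the authors, and of a further 12 from a second such table. Per the submitters' processing notes, Trim Galore, HISAT2 and featureCounts were used with the build mm10. Per the labels, the library kit keeps strand. Whether counting used strand is not given in the sources used here, so overlapping and antisense genes, and near-identical copies such as Xlr and Zscan4, are uncertain. Every column of both tables matched 1 labelled sample.

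Counts were tested with edgeR 4.0.16 in R 4.3.3 (filterByExpr, trimmed mean of M values, quasi-likelihood F test), with the 12 libraries of a table in 1 fit and group as the only term. The spread is thus shared between groups, most of which have 2 libraries. Genes with a Benjamini-Hochberg adjusted p under 0.05 were called. Fitted values use a prior count of 0.125. Where a group had 0 counts, the fold is a bound against 3 counts per library. With 1 to 3 counts, a ratio with an exact 95% interval is given. Reads carry no molecular identifiers, so these intervals and floors describe counting error alone. CPM uses the scaled library size. Medians per chromosome were taken over expressed genes (mean log2 CPM 2 or more). The script was tested on simulated data.

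The members and gene lists were chosen with earlier results of these data known. The text names 21 set genes, the 15 largest called changes per direction (no overlap, at least 50 counts on average, no predicted gene), up to 4 called genes per list and 5 per direction for the difference. Other genes are marked or were chosen from the lists after their values were seen. Symbols of 17544 of 20161 tested genes matched the RefSeq table. DESeq2 1.42.0, other scalings and filters, fewer libraries and a replicate block were tried as alternatives. Some named genes are not reported here.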

Additional observations from a re-analysis of the deposited data

Results flagged for a closer look

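Among the 4 WT libraries, 10 of the named genes had 1 library far from the other 3. WT replicate 3 stood apart for Gulp1 at 2.69 CPM and Grin2a at 0.908 CPM. WT replicate 5 stood apart for Grb10 at 249 CPM, Neurod1 at 3.16 CPM, Stmn2 at 119 CPM, Oas1a at 3.85 CPM and Xbp1 at 14.9 CPM. WT replicate 6 stood apart for Lrrc14 at 23.7 CPM, Nip7 at 83.1 CPM and Psmc1 at 79 CPM. Chance gives such a gap in about 1 in 20 groups of 4, and 130 genes were read. WT levels enter P7OE against WT and the test of the difference, and the spread of the WT libraries is also part of the shared estimate behind the other p-values.

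For 43 named genes the effect of Pramel7 differed between cells without and with Dux by the interaction test (edgeR adjusted p under 0.05). The level of Pramel7 differed along with Dux status, as given above. The difference in log2 fold change, DuxKO cells minus WT cells, was above 0 for Fmr1nb (8.32), H19 (8.03), Gbp3 (6.31), Ascl2 (6.15), Phlda2 (5.93), Serpina3m (5.91), Zfp951 (5.90), Tmem40 (5.90), Lncenc1 (5.83), Thy1 (4.96), Pnma5 (4.90), Igsf23 (4.48) and Cdkn1c (4.46). It was also above 0 for Xlr3c (4.34), Oas1a (3.74), Plet1 (3.56), Dnmt3c (3.50), Dnmt3b (3.14), Pou3f1 (2.66), Dnmt3l (2.65), Duxbl1 (2.17), Ndufa4l2 (1.54), Lefty2 (1.26), Btg2 (1.17) and Atp5g1 (1.12). It was below 0 for Habp2 (−6.25), Olig3 (−5.23), Grin2a (−4.68), Zfp703 (−4.63), Tgfb2 (−4.58), Zfp521 (−4.42), Hoxa3 (−4.14), Csf1 (−2.66), Cdh13 (−2.50), Gulp1 (−2.42), Vim (−1.93), Thbs1 (−1.82), Pmaip1 (−1.67), Cdh2 (−1.56), Grb10 (−1.19), Socs3 (−1.16), Ctbp1 (−0.67) and Phgdh (−0.60). H19, Serpina3m, Zfp951, Fmr1nb and Habp2 had a group with 0 counts, so their values depend on the prior count.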

How the results depend on the processing

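The 4320 calls of DuxKO_P7OE against DuxKO fell to 2448 with a minimum log2 fold change of 1 and to 2879 without the shifted chromosomes, an alternative by construction with fewer genes. Leaving out 1 library gave 1925 to 2675, since 1 group then has a single library that is assumed to vary like the others. DESeq2 gave 4538 and thinning to equal depth, chosen after the data were seen, gave 3833. A fit of only the groups compared gave 5400. The 1512 calls for the difference became 3184 with WT replicates 3 and 4 only, and 651 to 1939 with 1 library left out. The 4003 calls of P7OE against WT became 6124 and 1477 to 4818 in the same ways, and the cause was not tested. Ctbp_DuxTKO against DuxKO, with 8685 calls, had 6191 to 7405 with 1 library left out.

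A replicate block gave 2821 calls for the difference. The numbers do not pair the libraries by the deviations of same-numbered ones (correlations of 0.112 and 0.0284). The comparison of DuxKO_P7OE with DuxKO shares no replicate numbers, so no block could be made there. Of 129 tested named genes, 25 to 30 lost their call when 1 library was left out, 21 with the minimum fold change and 6 with thinning, and no called gene changed direction. With only the groups compared, 2 named genes lost their call and 2, Tet1 and Pou5f1, gained a call. Ctbp1, not called, ran from −0.05 to 0.04. The shallower DuxKO_P7OE libraries, with 10123058 and 11089600 counts, limit genes of few reads.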

Other observations

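Over all chromosomes, genes of oxidative phosphorylation and the proteasome were called about as often as other genes in DuxKO_P7OE against DuxKO (backgrounds 11.6% higher and 9.83% lower). Of 38 subunits of oxidative phosphorylation 4 were called higher and 4 lower (10.5% each), and the median log2 fold change was −0.03. Among the 29 outside the shifted chromosomes, 1 was called higher and 3 lower. For the proteasome, 1 of 22 subunits outside those chromosomes was called higher and 1 lower. Of 31 proteasome subunits 4 were called higher (12.9%) and 2 lower (6.45%), and of 24 genes of amino acid and endoplasmic reticulum stress 2 were called higher (8.33%) and 1 lower (4.17%). Xbp1, a transcription factor gene of the unfolded protein response, stood at 17.1 and 18 CPM in DuxKO and at 76.4 and 60 CPM in DuxKO_P7OE (log2 fold change 1.96, SE 0.21, edgeR adjusted p 5.71e-05). Of 29 interferon and antigen presentation genes 4 were called higher (13.8%) and 5 lower (17.2%). Csf1, a macrophage growth factor gene, stood at 5.09 and 5.47 CPM against 0.917 and 0.193 CPM (log2 fold change −3.22, SE 0.54, edgeR adjusted p 0.00133).

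In the Pramel family, 8 of 18 genes in the table were tested. Of these, 3 were called higher (37.5%, background 11.6%) and 1 lower (12.5%, background 9.83%). Besides Pramel7 itself, Pramef12 stood at 8.56 and 8.75 CPM in DuxKO and at 14.7 and 18.4 CPM in DuxKO_P7OE (log2 fold change 0.93, SE 0.20, edgeR adjusted p 0.00634). This call was lost without DuxKO replicate 4 or DuxKO_P7OE replicate 2 (edgeR adjusted p up to 0.0641). Of 9 tested structural RNA genes, a sign of library makeup, 0 were called by edgeR.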
